A study of Mus musculus with 6 samples.

Results

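The 10 genes described here encode the core of the mTOR complexes with their closest input and output. They are *Rptor*, *Mtor*, *Mlst8*, *Akt1s1*, *Deptor*, *Rictor*, *Tsc1*, *Tsc2*, *Rheb* and *Rps6kb1*, each found by its symbol in the deposited table, where all 10 are present among 23420 genes. Whole lungs of mouse embryos were collected at E11.5dpc (days post coitus), and RNA was sequenced from 3 control pools, labelled Raptorf/+; ShhCre/+, and 3 mutant pools, labelled Raptorf/f; ShhCre/+, with 3 or 4 lungs in each pool. ShhCre, which recombines the floxed (f) *Rptor* allele in lung epithelium, was carried by both groups. Control lungs were therefore heterozygous for the conditional allele and not wild type, and the mesenchyme, vessels and other tissues of a mutant lung kept their *Rptor* alleles. In a whole lung, fewer cells of a type and less RNA per cell cannot be told apart.

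mTOR is a protein kinase that works in a pair of complexes. In mTORC1 the scaffold RAPTOR, encoded by *Rptor*, holds the kinase and recruits substrates such as the S6 kinase encoded by *Rps6kb1*, while PRAS40, encoded by *Akt1s1*, inhibits the complex. In mTORC2 the scaffold is RICTOR, and both complexes share MLST8 and the inhibitor DEPTOR. The GTPase RHEB activates mTORC1 at the lysosome, and the TSC1-TSC2 complex switches RHEB off. Much of this regulation acts on proteins, through phosphorylation and nucleotide exchange, which RNA levels do not record. The comparison of the 2 groups asked how the transcriptome of the lung differed without epithelial mTORC1.

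No gene of the 10 passed the test between mutant and control lungs. With limma, 0 of the 10 reached an adjusted p under 0.05, against 0.501% of the 17168 tested genes (86 genes, 32 higher and 54 lower in mutant pools). edgeR and DESeq2 on the recovered reads also called 0 of the 10. At an unadjusted p under 0.05 limma listed 4 of the 10, *Rheb* and *Akt1s1* with higher means and *Deptor* and *Mlst8* with lower means in mutant pools, against 13.6% of all tested genes. edgeR listed 3 at that level, against 14.9% of the genes it tested, and DESeq2 listed 1, against 8.21%. The groups did not overlap for 4 of the 10 genes, against 20.2% of tested genes. All 10 passed the filter on low values, and their median log2 fold change was -0.05, beside -0.0021 over all tested genes.

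**Figure D1:**
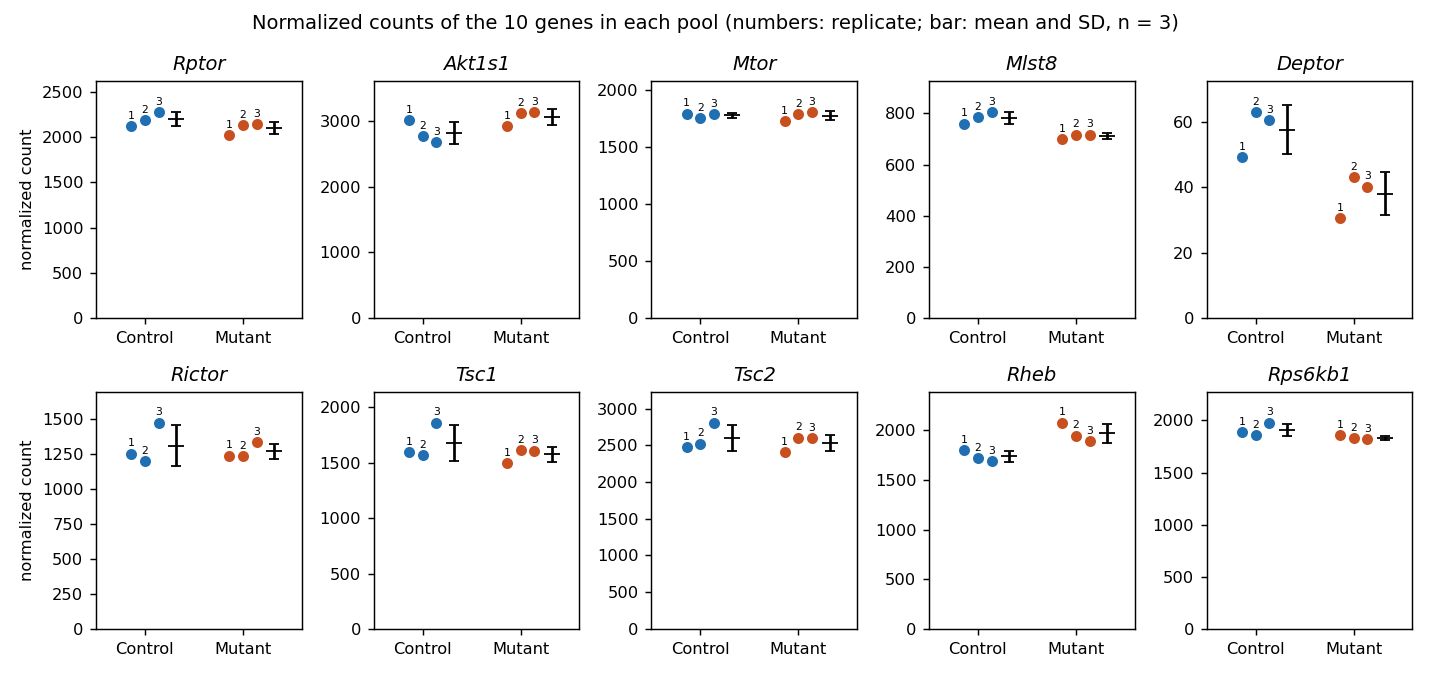
Normalized counts (vertical axes, each from 0) of the 10 genes in the 3 control and the 3 mutant pools, with the replicate number over each point and the mean ± SD beside it. The groups are apart for *Rheb*, *Mlst8*, *Deptor* and, narrowly, *Rps6kb1*, and control pool 3 stands above the other pools for *Rictor*, *Tsc1* and *Tsc2*.

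The promoter regions of 3 of these genes are shown because they belong to the scaffold that was targeted, to the scaffold of the sister complex and to the activator with the lowest p of the 10. Each runs from 250 bases before to 50 bases after the RefSeq transcription start in GRCm38.p6, on the strand of the gene, and capitals mark matches on either strand to the E-box CACGTG, the SP1 motif GGGCGG or the CCAAT box CCAAT. The searches for the ETS motif CCGGAAG, the NRF1 motif and the TATA box TATAAA found no match in these 3 windows.
*Rptor*, chr11:119602655-119602954, plus strand: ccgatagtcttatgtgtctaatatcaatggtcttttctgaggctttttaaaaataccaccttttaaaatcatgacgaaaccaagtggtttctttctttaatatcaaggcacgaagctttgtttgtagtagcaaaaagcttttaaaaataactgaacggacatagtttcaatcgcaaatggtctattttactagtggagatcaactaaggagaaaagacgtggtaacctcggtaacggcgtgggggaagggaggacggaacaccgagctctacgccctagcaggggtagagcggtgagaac
*Rictor*, chr15:6708131-6708430, plus strand: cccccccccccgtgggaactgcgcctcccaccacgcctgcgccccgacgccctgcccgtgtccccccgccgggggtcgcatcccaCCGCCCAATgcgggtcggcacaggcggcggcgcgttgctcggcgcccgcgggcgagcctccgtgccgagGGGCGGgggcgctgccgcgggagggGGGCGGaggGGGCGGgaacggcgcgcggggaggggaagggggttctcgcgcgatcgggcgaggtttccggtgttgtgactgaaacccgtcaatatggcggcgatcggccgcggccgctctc
*Rheb*, chr5:24842312-24842611, minus strand: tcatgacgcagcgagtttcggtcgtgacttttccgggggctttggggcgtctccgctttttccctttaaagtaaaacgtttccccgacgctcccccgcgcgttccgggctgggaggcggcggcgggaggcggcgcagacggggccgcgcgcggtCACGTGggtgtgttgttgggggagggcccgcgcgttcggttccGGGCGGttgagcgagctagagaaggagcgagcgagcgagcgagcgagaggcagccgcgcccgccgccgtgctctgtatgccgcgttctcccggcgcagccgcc
The *Rptor* window had a GC content of 41.7% with 13 CpG dinucleotides, the lowest of the 9 members with a RefSeq window, and none of the 6 motifs. The *Rictor* window had 78.3% GC and 47 CpG dinucleotides, with several SP1 matches, 1 of which overlaps its CCAAT box. The *Rheb* window also had 47 CpG dinucleotides (70.0% GC), and it was the 1 window among the 9 with an E-box, which 7.15% of 32817 promoter windows of the same length hold. An SP1 match was present in 4 of the 9 windows and in 35.6% of all windows. The ETS motif was present in 3 of the 9 (*Akt1s1*, *Mtor* and *Tsc2*) and in 8.86% of all windows. The CCAAT box was present in 2 of the 9 and in 37.4% of all windows. The NRF1 motif and the TATA box were present in 0 of the 9, beside 0.966% and 13.6% of all windows. Over the 9 windows the median was 21 CpG dinucleotides, beside 7 over all windows. These matches are descriptions of the sequence.

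*Rptor*, the targeted gene, spans chr11:119602905-119899576 on the plus strand of GRCm38. Its normalized counts were 2126, 2193 and 2279 for controls 1, 2 and 3, against 2023, 2137 and 2148 for mutants 1, 2 and 3. The lowest value was that of mutant pool 1 and the highest that of control pool 3, but mutant pools 2 and 3 lay above control pool 1, so the groups overlapped. On the log2 scale the fold change was -0.06 (standard error 0.05, adjusted p = 0.584). Its 95% confidence interval ran from -0.17 to 0.04, which is a difference between 11% lower and 2.70% higher in mutant lungs. The counts ranged from 1980 to 2293 reads per pool, and counting error alone amounts to 2.15% of such a count, below the spread of 3.5% among control pools and 3.29% among mutant pools. Reads over the whole gene were counted, so transcripts that lack the floxed part cannot be told apart from intact ones. The check of the label by this gene is limited to the sum of epithelial and other cells. At later stages the paper reports less RAPTOR protein and less phosphorylated RPS6 in the epithelium of mutant lungs.

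*Akt1s1* encodes PRAS40, the inhibitor that binds RAPTOR, and was the most abundant of the 10. Its normalized counts were 3009, 2768 and 2676 across the controls and 2927, 3125 and 3137 across the mutants. Mutant pools 2 and 3 were above every control pool, while mutant pool 1 lay below control pool 1. Its log2 fold change of 0.12 (95% confidence interval 0.0046 to 0.24) had an adjusted p of 0.349. The gene shares 162 of its 3072 exonic bases with other genes, of which 89 are shared with *Tbc1d17* on the opposite strand, and the counting was not stated to use strand.

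Among the subunits common to both complexes, *Mtor* itself had the smallest difference between the groups. Its normalized counts were 1793, 1750 and 1787 across the controls and 1728, 1786 and 1806 across the mutants, giving a log2 fold change of -0.0028 with a 95% confidence interval from -0.10 to 0.09. The groups overlapped throughout, and the sign of so small a value turned with the scaling (0.0022 after upper-quartile scaling).

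*Mlst8*, a WD-repeat protein that binds the kinase domain, had lower values in every mutant pool. Control pools were at 759, 784 and 805 and mutant pools at 698, 717 and 717, so that 42.5 normalized counts separated the nearest pools of the groups. The log2 fold change was -0.14 with a 95% confidence interval from -0.26 to -0.02, and it missed the threshold over all genes (adjusted p = 0.298). The exact permutation test gave p = 0.1, which is the minimum for groups of this size. Of the exonic bases of *Mlst8*, 22.5% are shared with *Bricd5* on the opposite strand. Reads there cannot be assigned to either gene without strand.

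*Deptor*, the inhibitor bound by both complexes, was the lowest of the 10 and had the widest relative spread among pools. Its normalized counts were 49.1, 63.0 and 60.6 across the controls and 30.7, 43.1 and 40.2 across the mutants. The mutant pools all lay lower, with a gap of 5.97 normalized counts. These values rest on 30 to 61 reads per pool, for which counting error is 14.5%, as wide as the spread among pools (12.9% in control and 17.2% in mutant pools). The log2 fold change of -0.59 was the largest in size among the 10, with a 95% confidence interval from -1.05 to -0.14 and an adjusted p of 0.234.

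*Rictor*, the scaffold of mTORC2, was at 1252, 1196 and 1473 across the controls and 1237, 1236 and 1332 across the mutants. Control pool 3 stood above all others and the remaining 5 pools lay between 1196 and 1332, so the groups overlapped. Its log2 fold change was -0.04 (95% confidence interval -0.21 to 0.13, adjusted p = 0.868), and without control pool 3 it was 0.05.

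**Figure D2:**
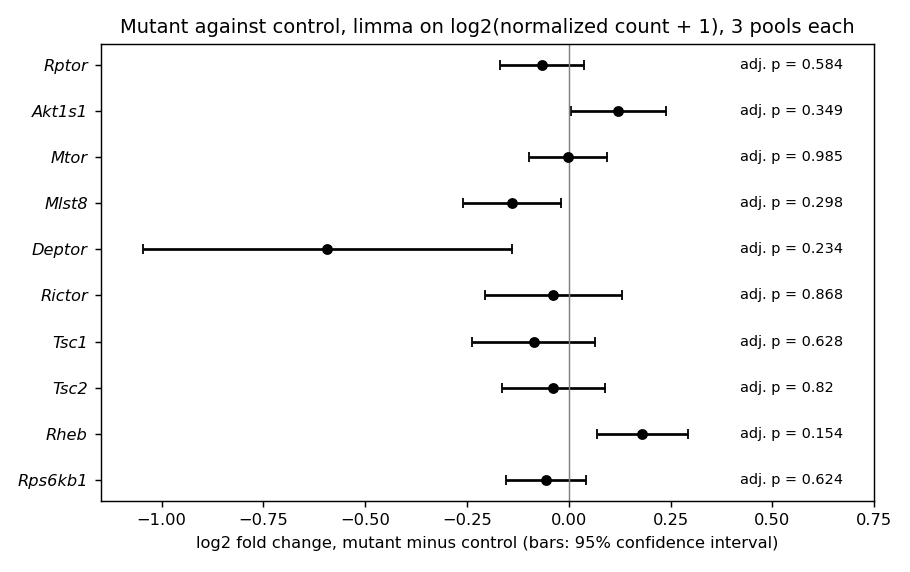
Log2 fold change of each gene, mutant minus control (horizontal axis), with its 95% confidence interval as a bar and its adjusted p over all tested genes at the right. The intervals of *Rheb* and *Akt1s1* lie above 0, those of *Mlst8* and *Deptor* below 0, and no adjusted p is under 0.154.

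The TSC genes upstream of mTORC1 resembled *Rictor* in their spread. *Tsc1*, which encodes hamartin and stabilizes its partner, was at 1598, 1568 and 1863 across the controls and 1500, 1616 and 1611 across the mutants. *Tsc2*, which encodes tuberin, the GTPase-activating subunit, was at 2479, 2524 and 2809 across the controls and 2403, 2604 and 2595 across the mutants. In both genes control pool 3 was the highest of the 6 pools and mutant pool 1 the lowest. The log2 fold change was -0.09 for *Tsc1* (95% confidence interval -0.24 to 0.07, adjusted p = 0.628), and -0.0078 without control pool 3. For *Tsc2* it was -0.04 (95% confidence interval -0.16 to 0.09, adjusted p = 0.820), and 0.02 without control pool 3. *Tsc2* shares 693 of 9620 exonic bases with *Pkd1* on the opposite strand.

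*Rheb*, the GTPase that the TSC complex turns off, had the lowest p of the 10 genes and ranked 535 by p among all tested genes. Its normalized counts were 1800, 1722 and 1693 across the controls and 2078, 1947 and 1889 across the mutants. The groups stood clear of each other, with 89.0 normalized counts between their nearest pools. The mean was 1738 ± 55.7 for the controls and 1972 ± 96.8 for the mutants (SD, n = 3 each), 13.4% higher, with a 95% confidence interval from 4.89% to 22.5%. On the log2 scale the difference was 0.18 (standard error 0.05), with an adjusted p of 0.154. Over the other settings and tools described in the closing section the adjusted p of *Rheb* lay between 0.110 and 0.401. None of its exonic bases is shared with another annotated gene.

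*Rps6kb1*, the S6 kinase that mTORC1 phosphorylates, was at 1885, 1863 and 1979 across the controls and 1858, 1832 and 1818 across the mutants. The groups did not overlap, but only 5.10 normalized counts separated control pool 2 from mutant pool 1, far less than the spread within either group. Its log2 fold change was -0.06 (95% confidence interval -0.15 to 0.04, adjusted p = 0.624).

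**Figure D3:**
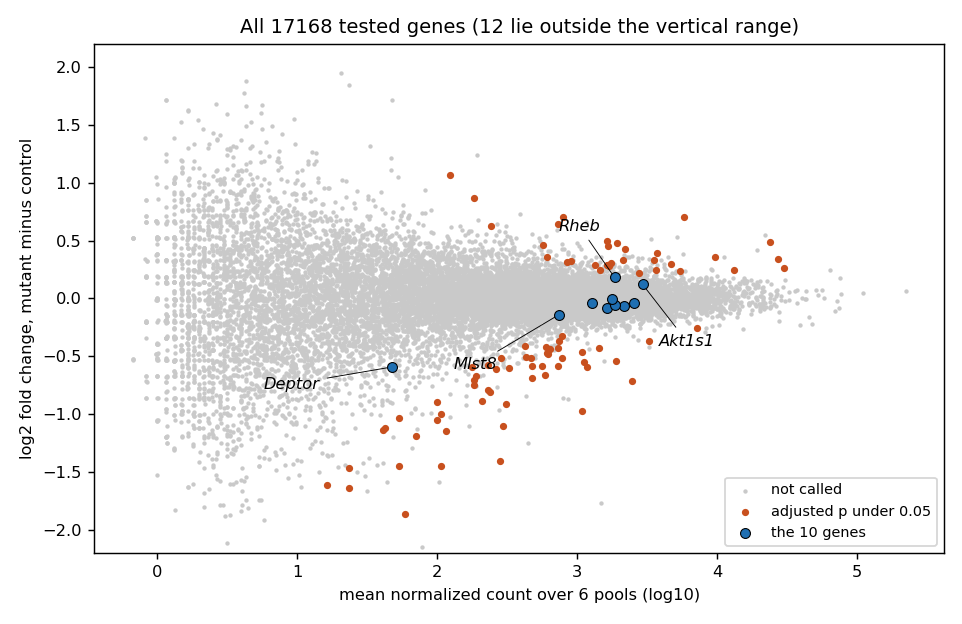
Log2 fold change of all 17168 tested genes (vertical axis) against the mean normalized count over the 6 pools (horizontal axis, log10). Genes with an adjusted p under 0.05 are in orange and the 10 genes in blue; *Deptor* lies among sparse genes with a wide scatter, and the other 9 lie at higher counts within the body of the plot.

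For 9 of the 10 genes, all but *Deptor*, the 95% confidence interval lay within 0.3 on either side of 0 on the log2 scale. This bound was not planned beforehand, and the upper end for *Rheb* (0.293) came close to it. The intervals of *Rheb*, *Akt1s1* and *Mlst8* excluded 0. An interval reached between 0.10 and 0.17 to either side of its estimate for these 9 genes, and 0.45 for *Deptor*. The median absolute log2 fold change of the 10 was 0.08, beside 0.06 for the 7832 tested genes with a mean normalized count of at least 500. The 2 sets are not alike, because the 10 include *Deptor*, whose mean was below 500. By mean level, *Deptor* was at percentile 26.8 of tested genes and the others between percentiles 62.7 and 90.6.

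Levels of different genes were compared per kilobase (kb) of annotated exon. On this scale *Akt1s1* was highest, at 957 normalized counts per kb as the mean of 6 pools, and its lowest pool was above the highest pool of every other gene. *Tsc2* (267), *Rheb* (240) and *Rps6kb1* (216) followed, and neighbours among them overlapped over the pools. *Mtor* (176), *Mlst8* (168), *Rptor* (160) and *Tsc1* (137) came next, again with overlap between neighbours. *Rictor*, at 76.1 normalized counts per kb, was below all of these in every pool, and *Deptor* was lowest at 5.39. Per kb of the longest transcript *Akt1s1* remained first and *Rictor* and *Deptor* last. *Rptor* (326) moved above *Mtor* (207) and *Mlst8* (194) without overlap over the pools. The mean of *Tsc1* (211) was also above that of *Mtor*, but neighbours among *Tsc1*, *Mtor* and *Mlst8* overlapped. The order within the middle of the list therefore depended on the length used.

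**Figure D4:**
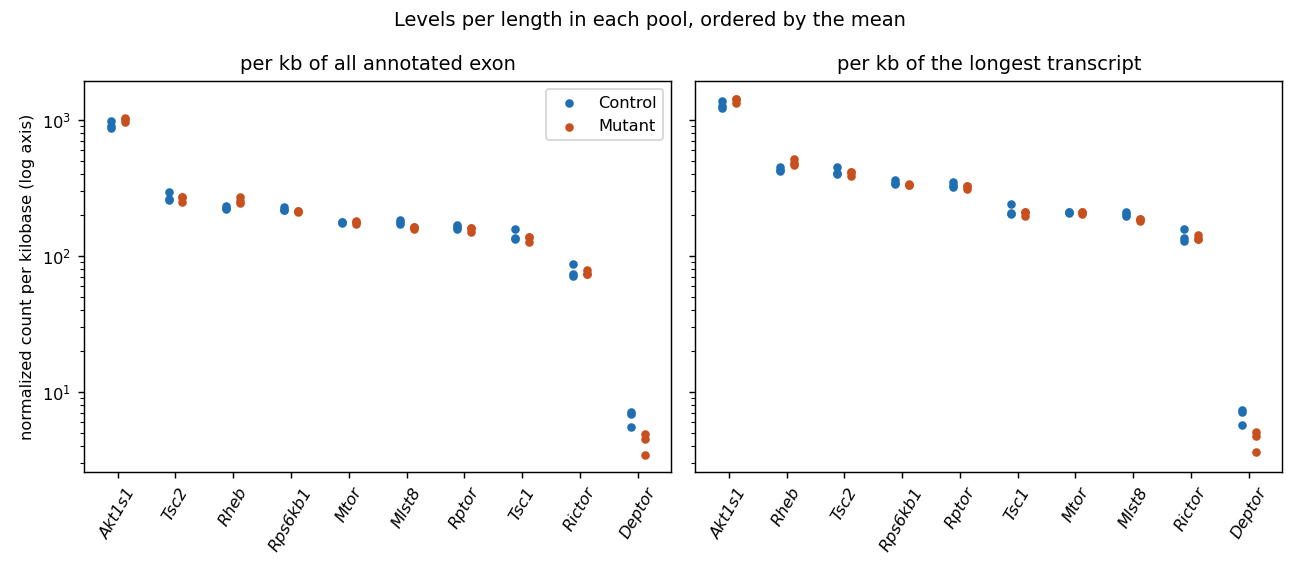
Normalized counts per kilobase (vertical log axis) of each gene in the control (blue) and mutant (orange) pools, with genes ordered by their mean, for the length of all annotated exons at the left and of the longest transcript at the right. *Akt1s1* is highest and *Deptor* lowest with either length, and the order of the genes between them changes with the length.

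In a ratio of 2 genes within a pool the size factor cancels. The log2 ratio of *Rptor* to *Rictor*, the scaffolds of the 2 complexes, was 0.76, 0.87 and 0.63 across the controls and 0.71, 0.79 and 0.69 across the mutants. All mutant values lay within the range of the control values (exact permutation test, p = 0.8). The log2 ratio of *Rptor* to *Mtor* was 0.25, 0.33 and 0.35 across the controls and 0.23, 0.26 and 0.25 across the mutants, with a mean of 0.31 ± 0.05 (SD) and 0.25 ± 0.02 (SD). The log2 ratio of *Tsc1* to *Tsc2* was -0.63, -0.69 and -0.59 across the controls and -0.68, -0.69 and -0.69 across the mutants. With exact permutation tests, the raw p was 0.3 for *Rptor* to *Mtor* and 0.2 for *Tsc1* to *Tsc2*. The Benjamini-Hochberg adjusted p over the 3 ratios was 0.45 for both and 0.8 for *Rptor* to *Rictor*. The smallest p of such a test with 3 against 3 pools is 0.1, so no ratio could have passed 0.05.

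Control pool 3 was the highest of all 6 pools for 6 of the 10 genes. The share of all tested genes highest in that pool was not counted, so whether this is particular to the 10 was not tested. Relative to the mean of control pools 1 and 2, control pool 3 was higher by 0.27 for *Rictor*, 0.23 for *Tsc1* and 0.17 for *Tsc2* on the log2 scale. It was lower by 0.11 for *Akt1s1*. Differences of control pool 3 from the other control pools were also taken by transcript length, over tested genes with a mean normalized count of at least 100. Their median was -0.08 for the 3602 genes with the shortest transcripts (up to 2809 bases). It was 0.07 for the 3601 with the longest (from 4464 bases). The longest transcripts of *Rictor* (9312 bases), *Tsc1* (7702 bases) and *Tsc2* (6266 bases) belong to the longest class and that of *Akt1s1* (2207 bases) to the shortest. *Mtor*, with a longest transcript of 8564 bases, differed by 0.01 in control pool 3. *Rptor*, *Deptor* and *Rps6kb1*, also of the longest class, were higher there by 0.08, 0.12 and 0.08. Of the middle class, *Mlst8* (3855 bases) was higher by 0.06 and *Rheb* (4046 bases) lower by 0.06. Whether length accounts for the differences of these genes was not tested. After the trend on length was removed from each library, the log2 fold changes were -0.01 for *Rictor*, -0.07 for *Tsc1*, -0.03 for *Tsc2* and 0.11 for *Akt1s1*, and 0 of the 10 genes were called by limma.

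**Figure D5:**
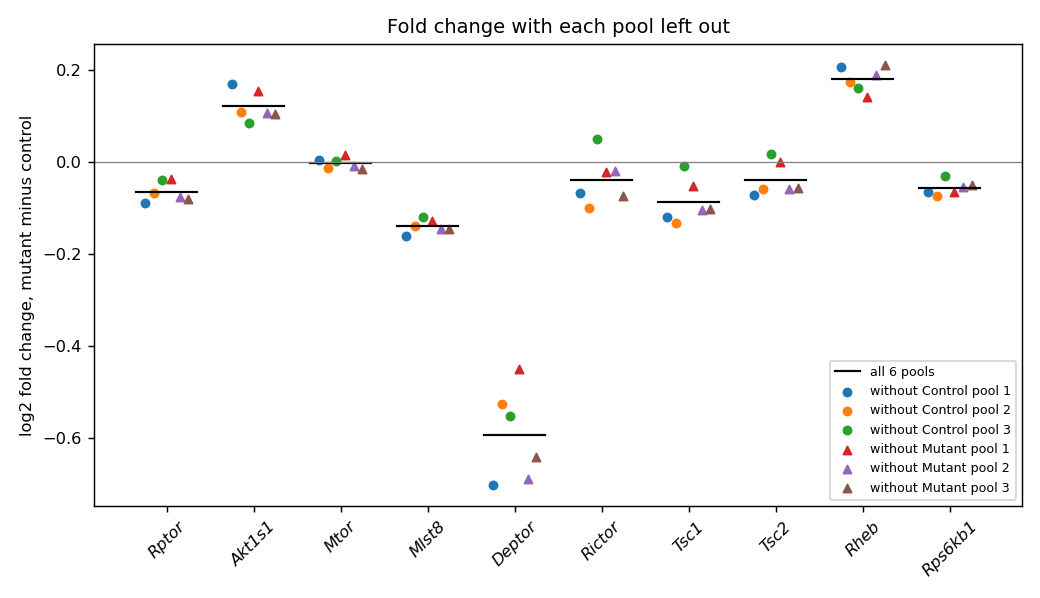
Log2 fold change of each gene, mutant minus control (vertical axis), from all 6 pools (black lines) and with 1 pool left out (coloured points). *Rptor*, *Mlst8*, *Deptor*, *Tsc1* and *Rps6kb1* stay below 0 and *Akt1s1* and *Rheb* above 0 in all 6 fits, while *Rictor*, *Tsc2* and *Mtor* cross 0.

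With 1 pool left out at a time, the log2 fold change of *Rptor* stayed between -0.09 and -0.04 and that of *Rheb* between 0.14 and 0.21. *Mlst8* stayed between -0.16 and -0.12 and *Deptor* between -0.70 and -0.45. No fit without 1 pool called any of the 10 genes at an adjusted p under 0.05.

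The pattern of *Rptor* over the 6 pools was compared with that of 11457 other genes with a mean normalized count of at least 100, by the root mean square difference of log2 values centred on the mean of each gene. The nearest genes were *Ulk1* (0.0094), *Acvr1b* (0.0112) and *Sec16a* (0.0124). Among the 10 genes *Tsc2* was nearest, at 0.0348. The 3 nearest genes are the minima over 11457, and their differences are smaller than the counting error of *Rptor* (2.15% of its count). Over 6 pools such likeness is a description only.

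Around the 10 genes, 61 further genes of the pathway were listed by role. limma and edgeR tested 60 of them and DESeq2 tested 61. With limma, edgeR and DESeq2, 0 of them reached an adjusted p under 0.05. At an unadjusted p under 0.05 limma listed 9 of the 60 (5 higher, 4 lower), a share of 15.0% beside 13.6% of all genes it tested. edgeR also listed 9, beside 14.9% of all genes, and DESeq2 listed 5 (8.20%), beside 8.21%. The groups did not overlap for 10 of the 60 (16.7%), beside 20.2% of all tested genes. In limma the log2 fold changes ran from -0.16 to 0.30, with a median of -0.0033.

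The subunits found only in mTORC2 were *Mapkap1*, *Prr5* and *Prr5l*, and 0 of 3 were called (median log2 fold change 0.13). *Prr5l*, a Protor protein, was at 951, 1128 and 820 across the controls and 1061, 1315 and 1176 across the mutants, giving a log2 fold change of 0.30 with an adjusted p of 0.265. Control pool 2 was above mutant pool 1, so the groups overlapped. *Prr5*, its paralog, had a log2 fold change of 0.13 (adjusted p = 0.669). Of 6 chaperones that assemble the mTOR kinase, 0 were called, and all 6 had a lower mean in mutant pools (median log2 fold change -0.07). *Tti1* and *Tti2*, partners of TELO2, had log2 fold changes of -0.15 (adjusted p = 0.319) and -0.16 (adjusted p = 0.352). The further TSC subunit *Tbc1d7* and the paralogs *Rhebl1* and *Rps6kb2* were not called either, with log2 fold changes of 0.07, -0.01 and 0.04. *Rhebl1*, the paralog of *Rheb*, was at 74.8 ± 6.21 for the controls and 73.9 ± 3.93 for the mutants (SD, n = 3 each).

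Of 24 kinases and stress inputs to TSC, 0 were called, with 9 higher and 15 lower means and a median log2 fold change of -0.02. *Ddit4*, which encodes REDD1, a stress-induced inhibitor of mTORC1 that acts through TSC, was at 1065, 1066 and 1060 across the controls and 1270, 1129 and 1295 across the mutants. The groups did not overlap, and the log2 fold change was 0.21 (adjusted p = 0.164). *Rps6ka3*, which encodes the ribosomal S6 kinase RSK2 of the ERK pathway, was at 1246, 1192 and 1210 across the controls and 1108, 1070 and 1098 across the mutants, without overlap (log2 fold change -0.16, adjusted p = 0.192).

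Of 13 direct substrates of mTORC1, 0 were called, with a median log2 fold change of 0.03. *Grb10*, an adaptor that restrains insulin signaling, was at 48361 ± 3048 for the controls and 43200 ± 1019 for the mutants (SD, n = 3 each). The groups did not overlap (log2 fold change -0.16, adjusted p = 0.191). *Maf1*, a repressor of RNA polymerase III, was at 1711, 1730 and 1724 across the controls and 1839, 1820 and 1893 across the mutants, also without overlap (log2 fold change 0.10, adjusted p = 0.311). Of 7 substrates of the S6 kinases 0 were called, with a median log2 fold change of 0.0001. The lowest p of that list were those of *Cad*, an enzyme of pyrimidine synthesis (log2 fold change -0.10, adjusted p = 0.401), and *Poldip3* (-0.06, adjusted p = 0.472).

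Of 8 substrates of mTORC2, 7 were tested and 0 were called, 6 with a higher mean in mutant pools (median log2 fold change 0.08). *Prkce*, a protein kinase C, was at 637, 596 and 608 across the controls and 701, 722 and 734 across the mutants. The groups did not overlap, and the log2 fold change of 0.23 had the lowest adjusted p of the pathway, 0.133. *Prkca* was at 546 ± 11.2 (SD, n = 3) and 600 ± 12.1 (SD, n = 3), with a log2 fold change of 0.14 (adjusted p = 0.351). Some members of this list are also on the list of inputs to TSC.

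Marker genes of 8 tissues or cell types were compared in the same fit. Among 20 epithelial markers, 7 were lower and 0 higher at an adjusted p under 0.05. The fall was not shared by the whole list. Means in the mutants were lower for 17 of the 20 and higher for 3, *Krt19* (log2 fold change 0.44) among them. The median over the 20 was -0.39 on the log2 scale. Their summed level was 27137 to 31667 normalized counts in control and 23027 to 24421 in mutant pools. *Cdh1* fell from 1439 ± 131 (SD, n = 3) to 736 ± 97.7 (SD, n = 3) and *Cldn6* from 3088 ± 333 (SD, n = 3) to 1880 ± 180 (SD, n = 3), both with an adjusted p under 0.05. The count of 7 epithelial markers became 0 with limma without trend, 16 without control pool 3, 7 without control pool 2 and between 0 and 2 without control pool 1 or any 1 mutant pool. *Epcam* and *Nkx2-1*, which marks lung epithelium, had log2 fold changes of -0.27 (adjusted p = 0.30) and -0.25 (adjusted p = 0.218) and were present at 1420 or more in every pool. Among 14 mesenchymal markers, 4 were called higher and 0 lower, *Col1a1* (0.49) and *Col1a2* (0.34) among them. All 14 had a higher mean in mutant pools, with log2 fold changes from 0.03 to 0.64 and a median of 0.18. Their summed level was 115473 to 124076 in control and 140849 to 147518 in mutant pools. Collagens weigh heavily in that sum. The control and mutant means were 19800 and 27828 for *Col1a1* and 24270 and 30639 for *Col1a2*. Mesothelial markers had 1 called higher of 5, *Wt1* (0.31), while *Krt19* (0.44, adjusted p = 0.0734), which is listed for epithelium too, was not called. Of 8 endothelial, 7 neural, 5 macrophage, 6 erythroid and 8 cardiac markers tested, limma called 0, with medians of 0.14, -0.03, 0.11, -0.0065 and -0.05. Among the lowest p in these lists were those of *Tie1* (0.27) and *Cdh5* (0.20), *Ret* (-0.42), *Cx3cr1* (0.20) and *Csf1r* (0.12), *Hbb-y* (0.07) and *Hbb-bh1* (-0.29), and *Myh6* (-1.30) and *Nkx2-5* (-1.54), each as a log2 fold change with an adjusted p above the threshold. Of the 8 cardiac markers, 3 had a higher and 5 a lower mean in mutant pools. *Myh6* ran from only 27.6 to 127 normalized counts over the pools and *Nkx2-5* from 9.80 to 72.6. The groups overlapped for *Nkx2-5*. A further 2 erythroid genes were at 0 in all pools. At an unadjusted p under 0.05 limma listed 4 of 8 endothelial, 2 of 7 neural and 2 of 8 cardiac markers. It listed 0 of 5 macrophage and 0 of 6 erythroid markers. Over all tested genes the share was 13.6%. DESeq2 called 1 endothelial and 2 cardiac markers, and limma called 2 and 1 without control pool 2 and 1 and 2 without control pool 3. The part of these differences in the values of the 10 genes was not tested.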

How the data were processed

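RNA from whole lungs was sequenced on the BGISEQ-500 platform in 6 libraries, 3 control and 3 mutant pools of embryos, with groups and replicates as the labels give them. Per the labels, the authors used Trim Galore, HISAT2, featureCounts and DESeq2 with the mm10 build, with no versions given. The signal values that the authors deposited are normalized counts, that is, reads after division by 1 size factor per library. The deposited table also holds the authors' own comparison (log2 fold changes with standard errors, a test score and p-values), which was not used here. All values above 0 were whole multiples of 1 step per library (within 0.001 reads), which gave 20197642 to 21276090 reads per library. Totals of normalized counts were 20705058 to 20865998. No pair of replicate libraries was identical.

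log2(normalized count + 1) was compared with limma 3.58.1 in R 4.3.3 (variance trend, no block) for genes reaching 1 normalized count in 3 or more libraries. p-values were adjusted by Benjamini-Hochberg over all tested genes and a threshold of 0.05. Fold changes on this scale understate those of low genes. p-values measure the spread between pools of different embryos. edgeR 4.0.16 and DESeq2 1.42.0 were run on the recovered reads. The limma, edgeR and DESeq2 fits were also run on counts simulated from the means and dispersions of these data. Single ratios were compared by two-sided exact permutation tests. GENCODE M21 (GRCm38) gave lengths and coordinates for all 10 genes, and promoter sequences are from RefSeq (GRCm38.p6), matched for 9 of 10 (all but *Deptor*).

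The genes and lists were chosen with earlier results of these data known. Named besides the 10 genes are, in each pathway list and each marker list (epithelium, mesenchyme, endothelium, mesothelium, neural crest and neurons, macrophages, erythroid cells, cardiac muscle), the genes with the lowest p (2 per list), called pathway genes (there were 0), the epithelial markers *Cdh1*, *Epcam* and *Nkx2-1*, and the 3 genes most like *Rptor*. *Mapkap1* and *Rhebl1* were named to complete small lists. A gene that this rule names is not reported here. Alternatives were limma without trend, upper-quartile scaling (75th percentile), a minimum of 10 in every library or no filter on low values, 0.1 as pseudocount, the replicate block, each pool left out, other thresholds, another length, edgeR and DESeq2. Removing each library's trend on transcript length was chosen after seeing the data.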

Additional observations from a re-analysis of the deposited data

How the results depend on the processing

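None of the 10 genes was called in any of the 6 fits without 1 pool or under limma without trend, upper-quartile scaling, a minimum of 10 in every library or no filter on low values, 0.1 as pseudocount, the replicate block, edgeR, DESeq2 or removal of the length trend. The count of called genes over the whole table was 86. It was 8 with limma without trend, 277 with DESeq2, 151 with the length trend removed, 223 at an adjusted p under 0.1 and 2328 at an unadjusted p under 0.05, and between 1 and 468 with 1 pool left out (1 without control pool 1, 147 without control pool 2, 468 without control pool 3, 12 without mutant pool 1, 21 without mutant pool 2 and 1 without mutant pool 3). The cause was not tested. *Mtor* turned its sign with upper-quartile scaling (0.0022), with the length trend removed (0.019) and with 1 pool left out (-0.016 to 0.016). Leaving out control pool 3 turned *Rictor* (from -0.099 to 0.051 over the 6 fits) and *Tsc2* (-0.072 to 0.018), and leaving out control pool 2 turned the log2 ratio of *Rptor* to *Rictor* (-0.089 to 0.033). The 4 called mesenchymal markers became 0 with limma without trend, 8 without control pool 3, 5 without control pool 2 and 0 or 1 without any other 1 pool. The called mesothelial marker, *Wt1*, was lost under several settings, the replicate block among them. Endothelial and cardiac markers, with 0 called, gave 1 and 2 calls with DESeq2, 2 and 1 without control pool 2 and 1 and 2 without control pool 3.

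Replicate numbers are shared by the labels of both groups, but same-numbered pools hold different embryos. The paper used littermate controls without saying which pools shared litters. The main fit had no block because the study names none. The deviations from the group means correlated at -0.03, 0.20 and 0.08 for pools 1, 2 and 3 of the same number. For pools of unlike number they correlated between -0.174 and 0.135. With the replicate block 71 genes were called, the log2 fold change of *Rptor* was -0.06 and 0 of the 10 genes were called. Depth limits *Deptor* in particular, at 30 to 61 reads per pool.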
